A study of Mus musculus with 20 samples.

Results

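The 10 genes described here act in the distal convoluted tubule and the aldosterone-sensitive distal nephron of the kidney. They were chosen by symbol as Slc12a3, Pvalb, Trpm6, Scnn1a, Scnn1b, Scnn1g, Nr3c2, Hsd11b2, Sgk1 and Wnk4, and each matched 1 of the 47069 Ensembl genes of the count table. All 10 were among the 17622 genes that passed the filter on low counts and were tested.

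The distal convoluted tubule takes up sodium and chloride through the thiazide-sensitive cotransporter, which the Wnk kinases switch on through the kinase SPAK. Further downstream the epithelial sodium channel carries sodium into the cell, and aldosterone raises its activity by binding the mineralocorticoid receptor, which induces kinases such as Sgk1. The enzyme Hsd11b2 inactivates glucocorticoids in these cells, so that the receptor answers to aldosterone.

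Total RNA was sequenced from kidneys of 20 male F1 mice (129SJ x C57Bl/6J) at 15 weeks of age. The groups were 5 untreated WT littermates, 6 Veh mice, 6 anti-miR-21-treated mice and 3 ACEi-treated mice. Veh, anti-miR-21 and ACEi mice all carried the Col4a3-/- genotype, a global disruption of a type IV collagen chain that serves as a model of Alport syndrome. From 5 weeks of age Veh mice were injected with PBS. Anti-miR-21 mice were given weekly subcutaneous injections of 50 mg/kg lademirsen, an antisense oligonucleotide against miR-21, and ACEi mice received the angiotensin-converting enzyme inhibitor ramipril at 11 mg/L in drinking water together with PBS injections. No group received the drugs in combination, no WT mice were treated, and no females were sequenced. Each library came from 1 mouse, named here by its label from A1 to A23. In bulk kidney RNA, fewer cells of a type and less RNA per cell cannot be told apart.

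The sequence below is shown because lademirsen targets this microRNA. It is mature mouse miR-21 as RefSeq gives it on GRCm38.p6 (chr11:86584120-86584141, minus strand), with the seed, bases 2 to 8, in capitals.
mmu-miR-21a-5p: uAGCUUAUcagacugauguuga
Matches of 7 bases were searched on the transcript strand in the 3′ UTRs, of at least 8 bases, of all protein-coding transcripts of each gene. Counted was the reverse complement of the seed, or that of bases 2 to 7 followed by an A. A match was present in 1 of the 10 genes, Scnn1g, and in 11.7% of the 20996 genes with such a UTR. In Scnn1g the match extends to 8 bases with an A opposite the first base of the microRNA, an extension found in 2.2% of genes. It lies in the 926-base 3′ UTR of Scnn1g-201 (GRCm38, chr7:121767758-121767765, plus strand, capitals below).
Scnn1g 3′ UTR: actcagcacttATAAGCTAaagagccaaag
A match of letters does not show that the microRNA acts there.

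Estimated counts summed to between 28474301 and 29479629 per mouse, and the libraries were split between 2 flow cells, here called A (13 libraries) and B (7 libraries). Flow cell B held 2 WT, 2 Veh, 1 anti-miR-21 and 2 ACEi libraries. Values are given as CPM, the counts of a gene scaled to a common library size, after TMM scaling, edgeR's correction for differences in composition between libraries. A gene counted as called where edgeR's quasi-likelihood test over all 20 mice gave an adjusted p-value under 0.05. Col4a3 itself was at 194 to 238 CPM in WT and 27.9 to 74.9 CPM in the 15 Col4a3-/- mice, with no overlap. TMM factors were 0.77 to 0.85 in WT and 1.12 to 1.26 in Veh, so the size of each Veh against WT change depends on the scaling. With library totals alone the median log2 fold change of all tested genes, Veh against WT, was 0.65 instead of 0.07, that of anti-miR-21 against Veh was -0.38 instead of -0.04, and that of ACEi against Veh was -0.32 instead of -0.05. Changes of the members are therefore also given relative to the median of all genes. Scaling moves a gene and this median together, so such a value is near equal under every scaling by construction. It only reads a gene against the median gene, and whether the median gene itself changed was not tested.

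Veh mice differed from WT mice in 8 of the 10 genes, 7 lower and 1 higher, where 73.0% of all tested genes were called, 34.0% lower and 39.0% higher. The share of members called was thus close to the background. Pvalb, Slc12a3 and Wnk4 fell most, to 6.19%, 27.7% and 50.5% of the WT mean. Among the channel subunits Scnn1a fell further than Scnn1g, and Scnn1b and Sgk1 did not pass the test. Trpm6, of the same tubule segment as Slc12a3, rose. The values of the 2 groups did not overlap for Slc12a3, Pvalb, Scnn1a and Wnk4, 4 of the 10 members, against 54.9% of all tested genes. The median log2 fold change of the members was -0.40, against 0.07 over all genes.

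**Figure D1:**
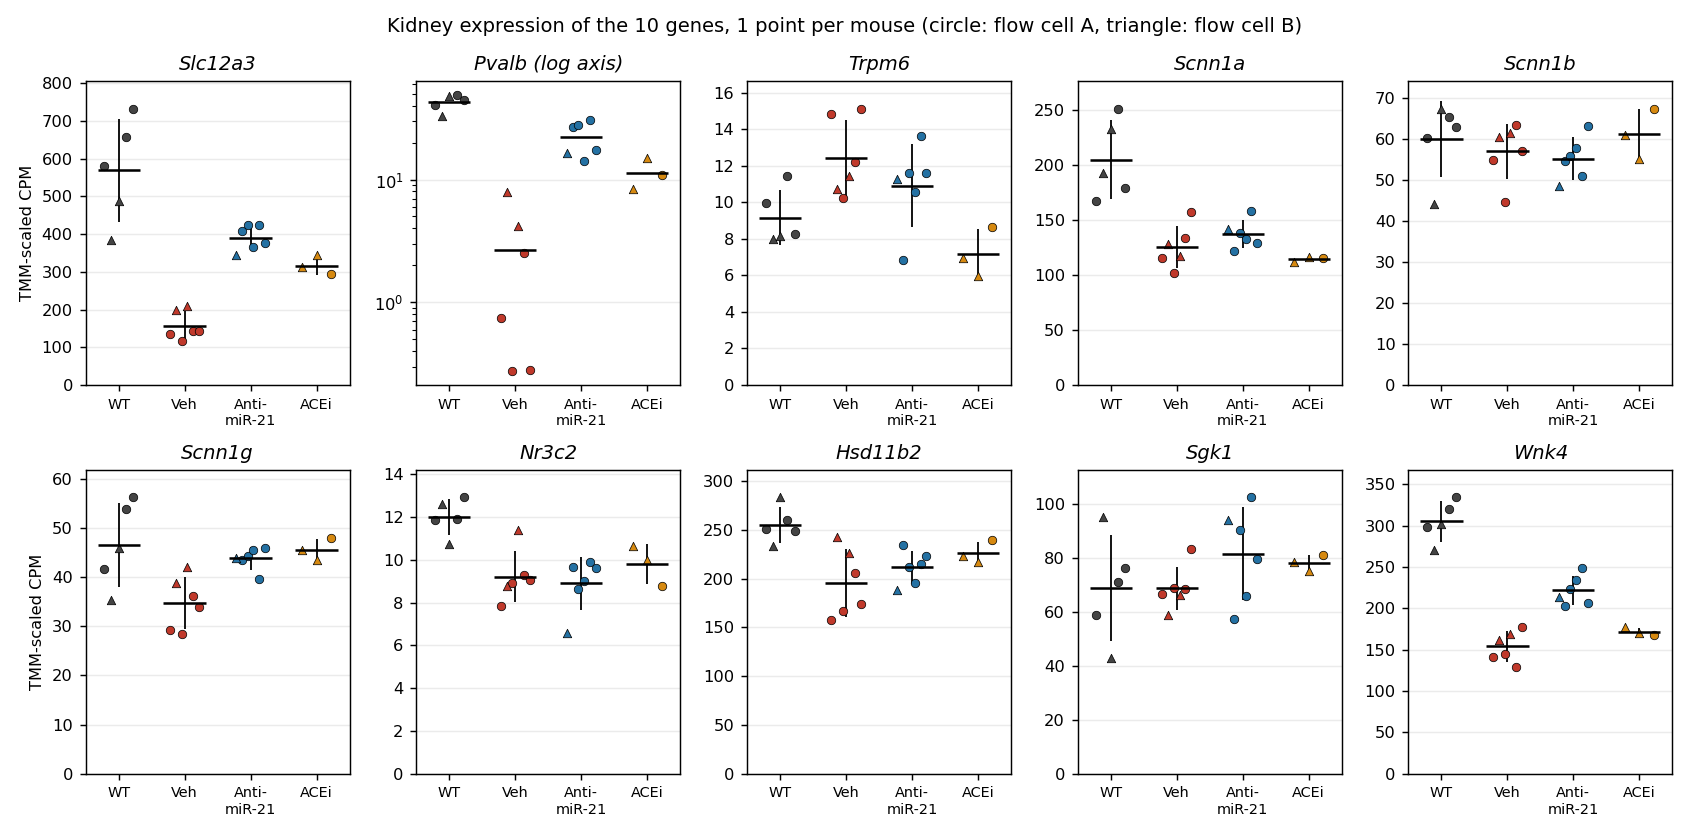
TMM-scaled CPM (y axis, linear from 0 except for the log axis of Pvalb) of the 10 genes in each of the 20 mice by group (x axis), with circles for flow cell A and triangles for flow cell B. Horizontal lines are group means and vertical bars are 1 SD (not drawn for Pvalb). Slc12a3 lay between 117 and 210 CPM in Veh and between 345 and 424 CPM with anti-miR-21, and Scnn1b overlapped in all groups.

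Slc12a3, the thiazide-sensitive sodium-chloride cotransporter (ENSMUSG00000031766, GRCm38 chr8:94329208-94366221, plus strand), had 658, 733, 581, 385 and 488 CPM in the 5 WT mice. In Veh it ranged from 117 to 210 CPM with a median of 143, with anti-miR-21 from 345 to 424 CPM with a median of 394, and in the 3 ACEi mice it was at 312, 343 and 294 CPM. Every Veh mouse lay below every mouse of the other groups, and WT overlapped with anti-miR-21 through A17. The log2 fold change was -1.85 in Veh against WT (95% interval -2.17 to -1.53, adjusted p = 1.33e-09). It rose by 1.31 with anti-miR-21 against Veh (SE 0.15, adjusted p = 4e-07), and 2.01-fold with ACEi against Veh (95% interval of the log2 fold change 0.64 to 1.37, adjusted p = 0.00016). Both treated groups stayed below WT, by -0.54 with anti-miR-21 (adjusted p = 0.0073) and by -0.85 with ACEi (adjusted p = 0.0011). The comparison of anti-miR-21 with WT did not pass the test with library totals alone (-0.30, adjusted p = 0.080). Relative to the median of all genes, the fall in Veh was -1.92. Every anti-miR-21 mouse lay above every ACEi mouse, but the difference of 0.31 had an interval from -0.07 to 0.68 and was not called (adjusted p = 0.45).

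Pvalb encodes parvalbumin, a calcium-binding protein of the early distal convoluted tubule and of fast skeletal muscle (ENSMUSG00000005716, GRCm38 chr15:78191118-78206351, minus strand). It had 48.9, 44.1, 40.7, 32.9 and 48.2 CPM in WT. The Veh mice spread over a 28.97-fold range, at 0.746 (A1), 2.50 (A4), 0.280 (A9), 7.96 (A16), 0.275 (A19) and 4.20 CPM (A20), with 10 rounded counts in the lowest library. No Veh mouse reached the lowest ACEi mouse, at 8.33 CPM, and the 3 ACEi mice (8.33, 14.9 and 10.9 CPM) overlapped narrowly with the anti-miR-21 mice (14.2 to 30.8 CPM, median 22.1). The log2 fold change was -4.03 in Veh against WT (SE 0.53, adjusted p = 7.63e-07). Against Veh, Pvalb rose by 3.08 with anti-miR-21 (SE 0.51, adjusted p = 3.11e-05) and by 2.11 with ACEi (SE 0.57, adjusted p = 0.0064). It stayed lower than WT with ACEi (-1.92, adjusted p = 0.013), a call lost without ACEi mouse A11 (-1.73, adjusted p = 0.064) or A23 (-1.88, adjusted p = 0.050). With anti-miR-21 the difference from WT was -0.95 with an interval from -1.91 to 0.01 (adjusted p = 0.10), although the 2 groups did not overlap, and it passed when only those groups were fitted (-0.95, adjusted p = 0.0014). In the fit of ACEi and Veh alone the rise of 2.11 did not pass (adjusted p = 0.057). The 5 skeletal muscle markers summed to 0.37 to 0.94 CPM in WT and 1.91 to 4.56 CPM in Veh. Only 2 of them passed the filter on low counts, and Myh4 had at most 3 counts in every mouse. Whether muscle RNA had a part in the Pvalb values was not tested.

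Flow cell moved with both genes in Veh. The 2 WT libraries of flow cell B, A17 and A18, had the lowest Slc12a3 of their group. The 2 Veh libraries of flow cell B, A16 and A20, had the highest Slc12a3 (198 and 210 CPM) and the highest Pvalb of the group. Within flow cell A alone the log2 fold change of Veh against WT was -2.28 for Slc12a3 and -5.54 for Pvalb, and that of anti-miR-21 against Veh was 1.58 and 4.62. Both directions and calls were thus present within that flow cell. ACEi had 1 library there and could not be compared within it.

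Wnk4, the kinase that acts on the cotransporter through SPAK (ENSMUSG00000035112, GRCm38 chr11:101260567-101277409, plus strand), had 321, 334, 298, 270 and 302 CPM in WT. Veh mice had 129 to 178 CPM (median 153), anti-miR-21 mice 202.98 to 249 CPM (median 218.8) and the ACEi mice 177, 171 and 168 CPM. The ACEi mice lay inside the Veh range, whereas each anti-miR-21 mouse lay above all Veh mice. Wnk4 fell by 0.99 on the log2 scale in Veh against WT (SE 0.081, adjusted p = 1.04e-09) and rose by 0.53 with anti-miR-21 against Veh (SE 0.078, adjusted p = 8.97e-06). That rise was 0.18 and not called with log2(FPKM + 1), which is scaled by library totals (adjusted p = 0.054). With ACEi against Veh the difference was 0.16 (95% interval -0.04 to 0.36, adjusted p = 0.19). It passed without Veh mouse A9 (0.23, adjusted p = 0.048) and was -0.11 with library totals alone. The direct comparison of anti-miR-21 with ACEi gave 0.37 (0.17 to 0.57) with an adjusted p = 0.080 in edgeR and 0.012 in DESeq2. Of its 4148 annotated exon bases, 306 overlap the opposite-strand gene Gm11615, and reads of the 2 cannot be separated if strand was not used in counting, which the sources do not state.

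Trpm6, the magnesium channel of the distal convoluted tubule (ENSMUSG00000024727, GRCm38 chr19:18749983-18892511, plus strand), was the 1 member that was higher in Veh than in WT. It had 11.4, 8.24, 9.97, 8.01 and 8.14 CPM in WT, 10.3 to 15.1 CPM (median 11.8) in Veh, 6.82 to 13.6 CPM (median 11.4) with anti-miR-21 and 6.95, 5.98 and 8.65 CPM with ACEi. WT overlapped Veh through A3, and all ACEi mice lay below all Veh mice. The change was 0.44 in Veh against WT (SE 0.16, adjusted p = 0.015) and did not pass within flow cell A (0.41, adjusted p = 0.094). Trpm6 fell by 0.79 with ACEi against Veh (SE 0.19, adjusted p = 0.0023). With anti-miR-21 against Veh it was at -0.19 (95% interval -0.49 to 0.12, adjusted p = 0.28), but was called lower with library totals alone (-0.53, adjusted p = 0.0042), which also called it higher than in WT (0.50, adjusted p = 0.015). The anti-miR-21 mice were 0.60 above the ACEi mice on the log2 scale (0.21 to 0.99), which did not pass after adjustment over all genes (adjusted p = 0.14).

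The 3 subunits of the epithelial sodium channel did not change by the same amount. Scnn1a, the alpha subunit (ENSMUSG00000030340, chr6), had 251, 179, 168, 193 and 233 CPM in WT and 102 to 157 CPM (median 123) in Veh, with no overlap. It was at 122 to 158 CPM (median 135) with anti-miR-21 and at 112, 116 and 116 CPM with ACEi, below every WT mouse. Scnn1a fell by 0.70 in Veh against WT (SE 0.11, adjusted p = 6.72e-06). The fall was -0.12 and not called with library totals alone (adjusted p = 0.30). Against WT it was also lower with anti-miR-21 (-0.58, adjusted p = 0.00026) and with ACEi (-0.83, adjusted p = 5.01e-05), and neither treatment was called against Veh (0.12 with an interval from -0.09 to 0.34 for anti-miR-21, -0.13 with an interval from -0.40 to 0.14 for ACEi). It was called lower with ACEi than in Veh under library totals alone (-0.40, adjusted p = 0.010).

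Scnn1b, the beta subunit (ENSMUSG00000030873, GRCm38 chr7:121865038-121918728, plus strand), had 65.4, 63.0, 60.2, 44.0 and 67.2 CPM in WT and 44.6 to 63.3 CPM (median 58.8) in Veh. With anti-miR-21 it had 48.4 to 63.2 CPM (median 55.3) and with ACEi 60.8, 55.0 and 67.4 CPM, so all groups overlapped. It was called in none of the 6 comparisons with TMM scaling, and its 95% interval in Veh against WT was -0.29 to 0.14 on the log2 scale. Under library totals alone it was called higher in Veh than in WT (0.51, adjusted p = 0.00025), lower with anti-miR-21 than in Veh (-0.38, adjusted p = 0.0030) and higher with ACEi than in WT (0.34, adjusted p = 0.032). The Veh against WT value stood at -0.14 relative to the median of all genes. Scnn1g, the gamma subunit, lies beside it (ENSMUSG00000000216, GRCm38 chr7:121734507-121768477, plus strand) and had 53.8, 56.2, 41.6, 35.3 and 45.8 CPM in WT and 28.4 to 42.0 CPM (median 35.0) in Veh. It was at 39.6 to 46.0 CPM (median 44.0) with anti-miR-21 and at 45.4, 43.4 and 47.9 CPM with ACEi, so that every ACEi mouse lay above every Veh mouse. The change was -0.42 in Veh against WT (SE 0.11, adjusted p = 0.0016), but 0.16 with library totals alone, and -0.49 relative to the median of all genes. It rose by 0.34 with anti-miR-21 (SE 0.10, adjusted p = 0.0090) and by 0.39 with ACEi (SE 0.13, adjusted p = 0.018) against Veh. Both calls were lost with library totals alone (0.0013 and 0.12), and the second was lost without ACEi mouse A23 (0.36, adjusted p = 0.065).

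Of the receptor and its enzyme, Nr3c2, which encodes the mineralocorticoid receptor (ENSMUSG00000031618, chr8), had 11.9, 12.9, 11.9, 12.6 and 10.7 CPM in WT, 7.85 to 11.4 CPM (median 8.99) in Veh, 6.59 to 9.89 CPM (median 9.30) with anti-miR-21 and 10.6, 9.98 and 8.79 CPM with ACEi. Veh mouse A20 was the only one of its group inside the WT range, and every anti-miR-21 and ACEi mouse lay below it. Hsd11b2, which shields the receptor from glucocorticoids (ENSMUSG00000031891, chr8), had 260, 249, 250, 234 and 283 CPM in WT, 157 to 243 CPM (median 190) in Veh, 188 to 235 CPM (median 213) with anti-miR-21 and 224, 217 and 239 CPM with ACEi. In Veh both fell by the same fitted log2 amount against WT, -0.38 (adjusted p = 0.0027 and 0.0016), with library totals alone at 0.20 for each (called higher for Hsd11b2, adjusted p = 0.047), and relative to the median of all genes at -0.45 for Nr3c2 and between -0.46 and -0.45 for Hsd11b2. In the fit with TMM scaling neither passed in either treatment against Veh, where the intervals were -0.26 to 0.16 and -0.17 to 0.34 for Nr3c2 and -0.08 to 0.31 and -0.03 to 0.45 for Hsd11b2. Hsd11b2 did pass with anti-miR-21 against Veh within flow cell A (0.30, adjusted p = 0.0078) and with ACEi against Veh without Veh mouse A16 (0.31, adjusted p = 0.021). With library totals alone both were called lower with anti-miR-21 than in Veh (-0.40, adjusted p = 0.0028 for Nr3c2, -0.23, adjusted p = 0.022 for Hsd11b2), so the direction for Hsd11b2 depends on the scaling. Against WT, anti-miR-21 mice were lower in Nr3c2 (-0.43, adjusted p = 0.0026) and in Hsd11b2 (-0.27, adjusted p = 0.032). Neither passed with library totals alone (-0.19, adjusted p = 0.16 and -0.029, adjusted p = 0.80). The call of Hsd11b2 was also lost with flow cell as a term (-0.25, adjusted p = 0.054) and without any one of WT mice A3 and A18 or anti-miR-21 mice A2 and A10 (-0.26 to -0.23, adjusted p = 0.065 to 0.086). With ACEi against WT neither gene was called, at -0.29 for Nr3c2 (adjusted p = 0.065) and -0.17 for Hsd11b2 (adjusted p = 0.25). Nr3c2 did pass there without WT mouse A18 (-0.33, adjusted p = 0.049). Both of these directions reversed with library totals alone. Of the exon bases of Nr3c2, 247 of 6474 overlap the opposite-strand gene Gm10649.

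Sgk1, the kinase induced by aldosterone (ENSMUSG00000019970, GRCm38 chr10:21882184-21999902, plus strand), was called in none of the 6 comparisons with TMM scaling. It had 71.3, 76.4, 58.9, 95.1 and 42.8 CPM in WT, 58.8 to 83.2 CPM (median 67.6) in Veh, 57.6 to 103 CPM (median 85.2) with anti-miR-21 and 78.7, 75.2 and 81.1 CPM with ACEi. WT mice spread over a 2.22-fold range that held all Veh mice. The interval of the Veh against WT change was -0.34 to 0.33 around a value of -0.0031, which was 0.58 with library totals alone (adjusted p = 0.0044, with both treated groups called above WT as well) and -0.07 relative to the median of all genes. The sequence below is shown because corticosteroid receptors are known to bind DNA as pairs and Sgk1 is their textbook target. Receptor half-sites (AGAACA or TGTTCT, either strand) were searched in the RefSeq promoter windows, 250 bases before to 50 after a transcript start, which exist here for 8 members and number 6 for Sgk1. The palindrome of AGAACA, 3 bases of any kind and TGTTCT was found in 1 window of Sgk1, 189 bases before a start, in no other window of the members, and in 3 of 32851 windows of all genes (0.00913%). Half-sites alone are in 6233 of these windows. The stretch is printed from GRCm38.p6 (chr10:21993656-21993760, plus strand), with the palindrome in capitals.
Sgk1 promoter: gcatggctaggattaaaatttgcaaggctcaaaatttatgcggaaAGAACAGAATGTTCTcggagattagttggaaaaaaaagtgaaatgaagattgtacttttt
The letters alone show no binding.

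Treatment raised some of these genes above Veh. With anti-miR-21, 4 of the 10 members were called, all higher (Slc12a3, Pvalb, Scnn1g and Wnk4), where 59.2% of all tested genes were called and 28.8% were higher. With ACEi, 4 members were called, where 40.1% of all tested genes were called: Slc12a3, Pvalb and Scnn1g were higher (21.0% of all genes were higher) and Trpm6 was lower (19.1% of all genes were lower). These comparisons share the Veh mice. Members whose values did not overlap with Veh numbered 3 with anti-miR-21 and 4 with ACEi, against 36.4% and 38.6% of all tested genes. Between anti-miR-21 and ACEi no member passed in edgeR, where 0.584% of all genes did. Wnk4 and Trpm6 were among the 2562 genes with an unadjusted p under 0.05 in edgeR, and in DESeq2 Wnk4 alone was called. Values of the 2 groups did not overlap for 3 members, Slc12a3, Scnn1a and Wnk4, against 8.99% of all genes. Against WT, 5 members were lower with anti-miR-21 (43.7% of all genes called, 19.8% lower) and none was higher (23.9% of all genes). With ACEi 4 members were lower (47.7% of all genes called, 22.5% lower) and none was higher (25.2% of all genes).

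**Figure D2:**
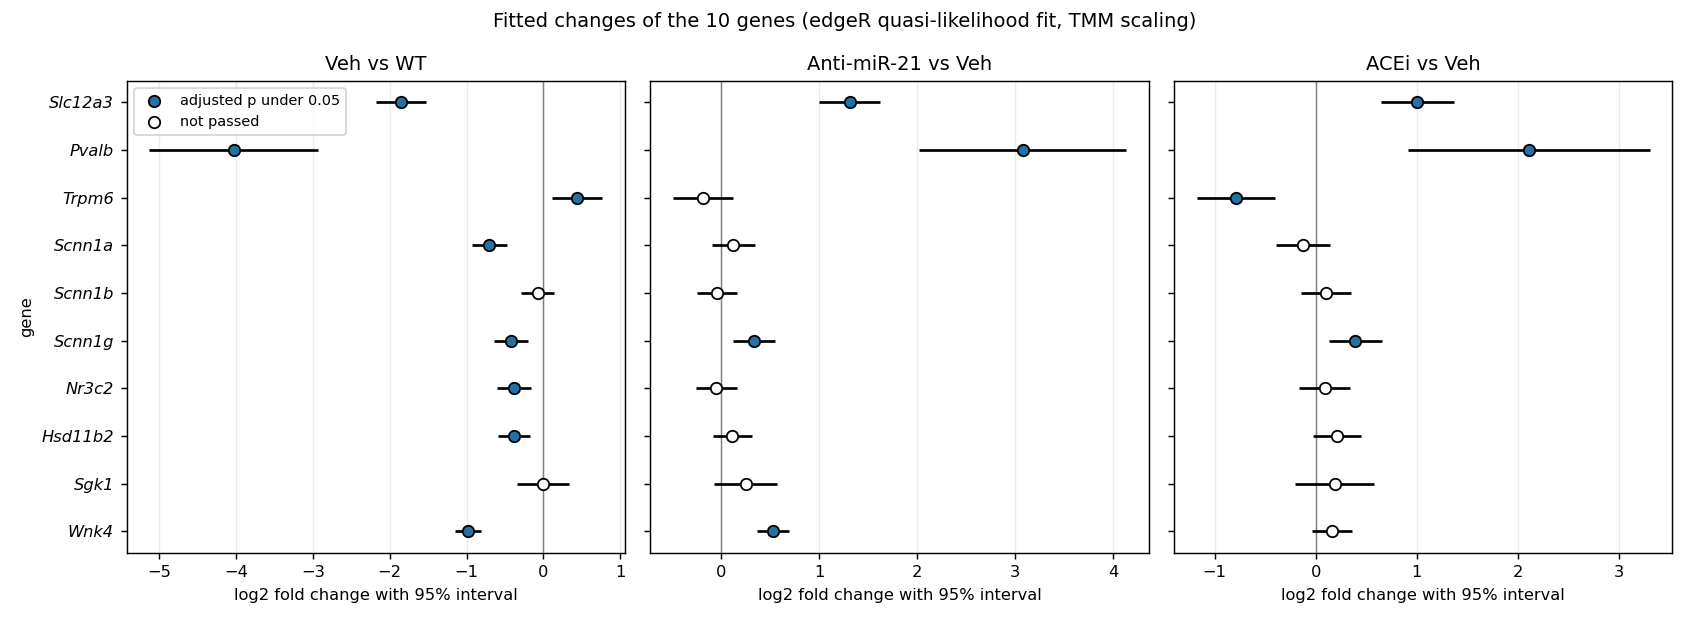
Fitted log2 fold changes (x axis) of the 10 genes (y axis) in Veh against WT, anti-miR-21 against Veh and ACEi against Veh, with bars for 95% intervals. Filled points have an adjusted p under 0.05, and the intervals are widest for Pvalb (-5.13 to -2.93 in Veh against WT).

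**Figure D3:**
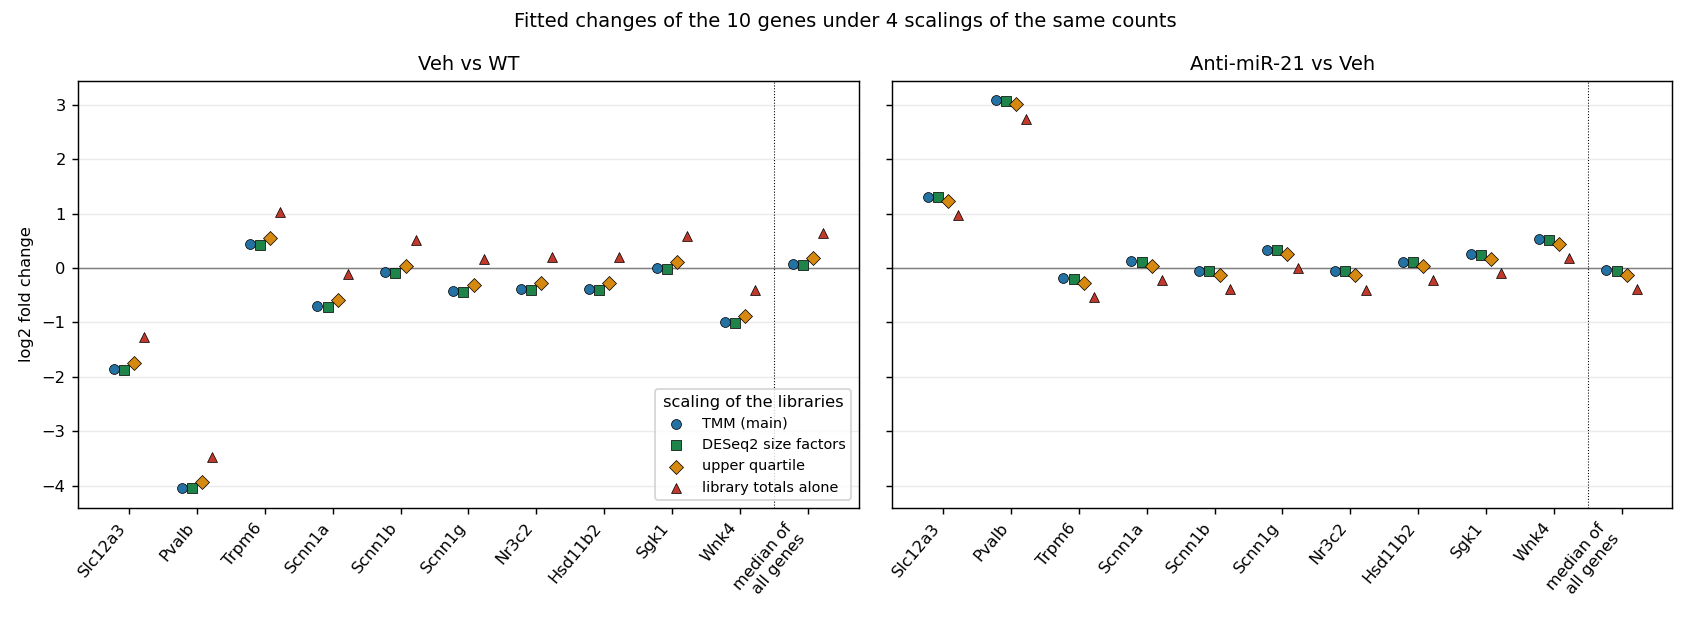
Log2 fold changes (y axis) of the 10 genes and the median of all tested genes (x axis) with 4 scalings of the same counts. Library totals alone move every gene and the median together, the latter from 0.07 to 0.65 in Veh against WT, so that Scnn1b, Scnn1g, Nr3c2, Hsd11b2 and Sgk1 lie above 0 there while Slc12a3, Pvalb, Scnn1a and Wnk4 stay below 0.

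Because scaling between libraries shifts all genes alike, 8 ratios of counts (0.5 added to each) were also taken within each library and compared by exact two-sided permutation tests in 4 comparisons, with Benjamini-Hochberg adjustment over the 32 tests, of which 19 passed. The log2 ratio of Slc12a3 to Scnn1b was 3.23 ± 0.25 (SD, n = 5) in WT, 1.45 ± 0.24 (n = 6) in Veh, 2.83 ± 0.18 (n = 6) with anti-miR-21 and 2.37 ± 0.26 (n = 3) with ACEi. The cotransporter thus fell against the beta subunit in all 6 Veh mice below all 5 WT mice (exact p = 0.0022, adjusted p = 0.0099), the smallest p this design allows. It was higher than in Veh with anti-miR-21 (exact p = 0.0022) and with ACEi (exact p = 0.012, the smallest possible with 3 mice). It was also higher with anti-miR-21 than with ACEi, by 0.45 (exact p = 0.024, adjusted p = 0.040), although 1 ACEi mouse overlapped the anti-miR-21 range. That call was lost without any one of the 3 ACEi mice or of 5 of the 6 anti-miR-21 mice (0.33 to 0.59, adjusted p = 0.057 to 0.12). With fewer than 3 ACEi mice the test has too few divisions for a small p. The losses without an ACEi mouse thus do not show that the difference rests on single mice.

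Pvalb fell further than Slc12a3 in the same libraries. Their log2 ratio was -3.71 ± 0.27 (SD, n = 5) in WT and -6.86 ± 1.76 (n = 6) in Veh (exact p = 0.0043, adjusted p = 0.013), and -4.19 ± 0.36 (n = 6) with anti-miR-21. ACEi mice, at -4.83 ± 0.36 (n = 3), did not differ from Veh by this test (exact p = 0.083), and A16 of Veh overlapped both treated groups. Wnk4 fell less than Slc12a3. The ratio of Wnk4 to Slc12a3 went from -0.87 ± 0.26 (n = 5) in WT to -0.01 ± 0.28 (n = 6) in Veh (exact p = 0.0022), and was back at -0.82 ± 0.14 (n = 6) with anti-miR-21 and -0.88 ± 0.12 (n = 3) with ACEi. The ratio of Trpm6 to Slc12a3 also rose in Veh against WT, by 2.28 (exact p = 0.0022). Against Veh it changed by -1.54 with anti-miR-21 and by -1.82 with ACEi.

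Within the channel, the log2 ratio of Scnn1a to Scnn1b fell by 0.63 in Veh against WT, with no overlap (exact p = 0.0043, adjusted p = 0.013), and was not called in either treated group against Veh (adjusted p = 0.21 and 0.13). The ratio of Scnn1b to Scnn1g rose by 0.35 in Veh (exact p = 0.0065) and fell by 0.39 with anti-miR-21 and by 0.30 with ACEi against Veh (exact p = 0.0022 and 0.024), the latter with no overlap but lost without any one of 7 of the 9 mice (-0.34 to -0.26, adjusted p = 0.054 to 0.10). With any one ACEi mouse left out, the other ACEi against Veh ratios also no longer passed, as 2 mice cannot give a small enough p. Nr3c2 to Hsd11b2 passed in no comparison and was -4.41 ± 0.20 (n = 5) in WT and -4.40 ± 0.21 (n = 6) in Veh. Slc12a3 also fell against Slc12a1, the furosemide-sensitive cotransporter of the upstream thick ascending limb, by 0.70 in Veh against WT (exact p = 0.015, adjusted p = 0.029), and was higher than Veh by 0.75 with anti-miR-21 and 0.88 with ACEi. The call of this ratio in Veh against WT was lost without WT mouse A3 (-0.54, adjusted p = 0.056). It was also lost without Veh mice A4, A9, A16, A19 or A20 in turn (-0.72 to -0.62, adjusted p = 0.056 to 0.064). Within flow cell A, the ratio of Slc12a3 to Scnn1b still differed by -2.08 in Veh against WT, and those of Pvalb to Slc12a3 and Scnn1a to Scnn1b no longer passed (-3.84 and -0.44, adjusted p = 0.065 each).

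**Figure D4:**
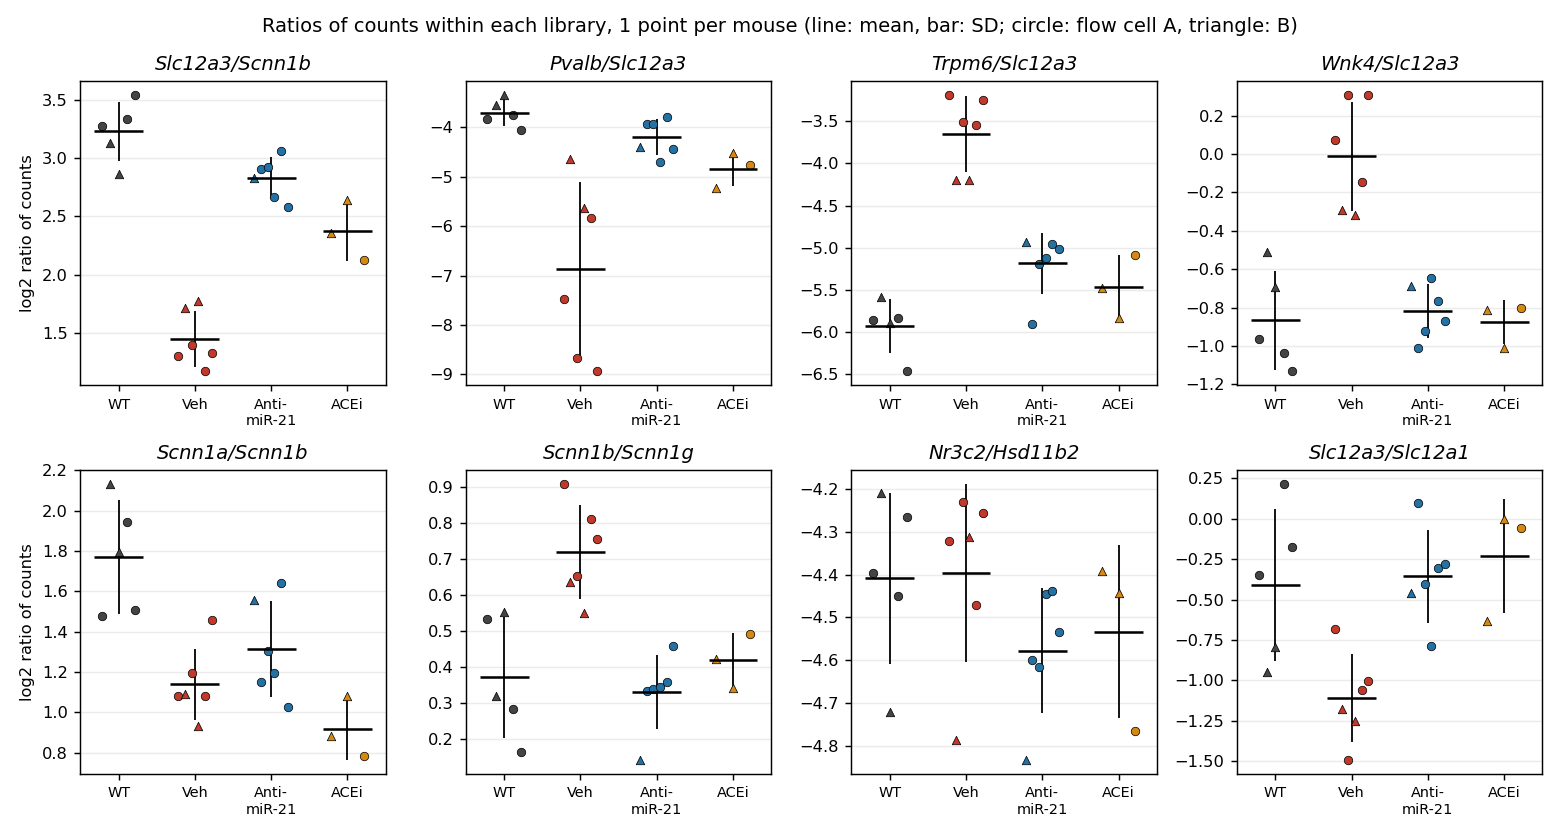
Log2 ratios of counts of 2 genes within each library (y axis) in each of the 20 mice by group (x axis), with group means as lines, 1 SD as bars, and circles and triangles for flow cells A and B. Slc12a3 to Scnn1b separates all Veh mice from all other mice, and Nr3c2 to Hsd11b2 overlaps in all groups.

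Levels of different genes were compared only per length, from the authors' FPKM, fragment counts divided by transcript length and library total. In WT the order of mean FPKM was Slc12a3 (143), Hsd11b2 (114), Wnk4 (60.8), Scnn1a (48.0), Pvalb (38.3), Sgk1 (23.1), Scnn1b (18.3), Scnn1g (12.9), Trpm6 (1.16) and Nr3c2 (0.69). The ranges of Slc12a3 and Hsd11b2 overlapped, as did those of each neighbouring pair from Scnn1a to Scnn1g. Wnk4 was apart from both neighbours. In FPKM, Trpm6 and Nr3c2 were apart from each other and from the rest, but their order did not hold in the counts. Each WT mouse had more counts of Nr3c2 (256 to 315) than of Trpm6 (194 to 257), over fewer exon bases (6474 against 7719). The FPKM of Nr3c2 also did not follow its counts. WT mice A6 and A17 had 315 and 308 counts but 0.97 and 0.61 FPKM. FPKM and counts rest on different gene models, and the cause was not tested. In Veh, Hsd11b2 led at 132 FPKM, Slc12a3 followed at 59.8 FPKM and Pvalb was at 3.48 FPKM, below Scnn1g (14.5 FPKM). FPKM are scaled by library totals, so changes between groups were not read from them.

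Other genes of these pathways were taken as 6 lists with 57 genes, all tested. In Veh against WT 46 of them were called, 35 lower and 11 higher, where 73.0% of all tested genes were called, 34.0% lower and 39.0% higher. Their median log2 fold change was -0.59 against 0.07 over all genes. With anti-miR-21 against Veh 48 were called, 36 higher and 12 lower (59.2% of all genes called, 28.8% higher), and with ACEi 31 were called, 26 higher and 5 lower (40.1% of all genes called, 21.0% higher). Between the treatments no gene of the lists was called by edgeR or DESeq2, and 8 had an unadjusted p under 0.05 in edgeR. With library totals alone the split was 24 lower and 22 higher in Veh against WT, 18 higher and 18 lower with anti-miR-21, and 9 higher and 11 lower with ACEi, so the directions of smaller changes below hold for TMM scaling. The changes named below with a rise or fall of at least 0.5 kept their direction with library totals alone. The rises with ACEi of Klhl3 (0.35, adjusted p = 0.21), Ppp1r1a (0.62, adjusted p = 0.055), Hsd11b1 (0.38, adjusted p = 0.17) and Calb1 (0.10, adjusted p = 0.55), and that of Bsnd with anti-miR-21 (0.14, adjusted p = 0.33), did not pass there.

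Of 11 kinases, ubiquitin ligases and related regulators of the cotransporter, 7 fell in Veh against WT and none rose (73.0% of all tested genes were called, 34.0% lower), and with library totals alone 5 were lower and 4 higher. Ppp1r1a, an inhibitor of protein phosphatase 1, was at 168 ± 27.0 CPM (SD, n = 5) in WT, fell by 2.16 on the log2 scale to 37.7 ± 18.8 CPM (n = 6) in Veh and rose by 1.43 with anti-miR-21 and 0.87 with ACEi. Klhl3, which with Cul3 marks Wnk kinases for degradation, fell by 1.27 and rose by 0.98 and 0.61. Wnk3 averaged 0.475 CPM in WT and less in the other groups, and had the largest p of the list (-0.20, adjusted p = 0.58).

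Of 10 genes for processing and turnover of the sodium channel, 5 fell and 4 rose in Veh, and with library totals alone 3 were lower and 6 higher. Usp2, a deubiquitinating enzyme, fell by 1.86 and rose by 1.03 with anti-miR-21 and 1.02 with ACEi against Veh. Prss8, the protease prostasin that activates the channel, fell from 498 ± 72.2 CPM (n = 5) to 187 ± 29.9 CPM (n = 6), by 1.42, and rose by 0.98 and 0.87. Sgk3, a relative of Sgk1, was at -0.15 in Veh against WT (adjusted p = 0.22, 0.43 with library totals alone) and rose by 0.27 and 0.34 with the treatments, which were -0.061 and 0.063 and not called with library totals alone.

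Of 9 receptor partners and targets, 6 fell and none rose in Veh, and with library totals alone 4 were lower and 3 higher. Ndrg2, a protein phosphorylated by Sgk1, fell by 1.77, and Hsd11b1, which regenerates active glucocorticoid, fell by 1.72. With anti-miR-21 they rose by 1.25 and 0.90 and with ACEi by 0.76 and 0.65. Tsc22d3, a glucocorticoid-induced gene, was at 0.03 (adjusted p = 0.90, 0.61 with library totals alone). Of 10 genes of the sodium pump and of potassium and chloride channels, 8 fell and none rose, and with library totals alone 7 were lower and none higher. Fxyd2, the pump's gamma subunit, fell by 1.53 and Bsnd, the barttin subunit of the chloride channels, by 1.18. Fxyd2 rose by 1.02 with anti-miR-21 and by 0.74 with ACEi, and Bsnd rose by 0.48 with anti-miR-21 and was at 0.30 with ACEi (adjusted p = 0.15). Kcnma1, a potassium channel, was at -0.24 (adjusted p = 0.56).

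The 10 calcium and magnesium transport genes were divided, with 5 lower and 5 higher in Veh, and 2 lower and 5 higher with library totals alone. The calcium-binding proteins S100g and Calb1 fell by 1.84 and 1.46, and rose by 1.62 and 0.73 with anti-miR-21 and by 1.31 and 0.37 with ACEi. Atp2b4, a plasma membrane calcium pump, rose by 0.33 in Veh (adjusted p = 0.021) and fell by 0.36 with anti-miR-21, with the same directions under library totals alone. Of 7 transcription factors, 4 fell and 2 rose, and with library totals alone 3 were lower and 4 higher. Emx1, a homeobox factor, fell by 1.79 and rose by 1.34 and 0.99. Tfap2b was at -0.08 (adjusted p = 0.52, 0.51 with library totals alone).

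**Figure D5:**
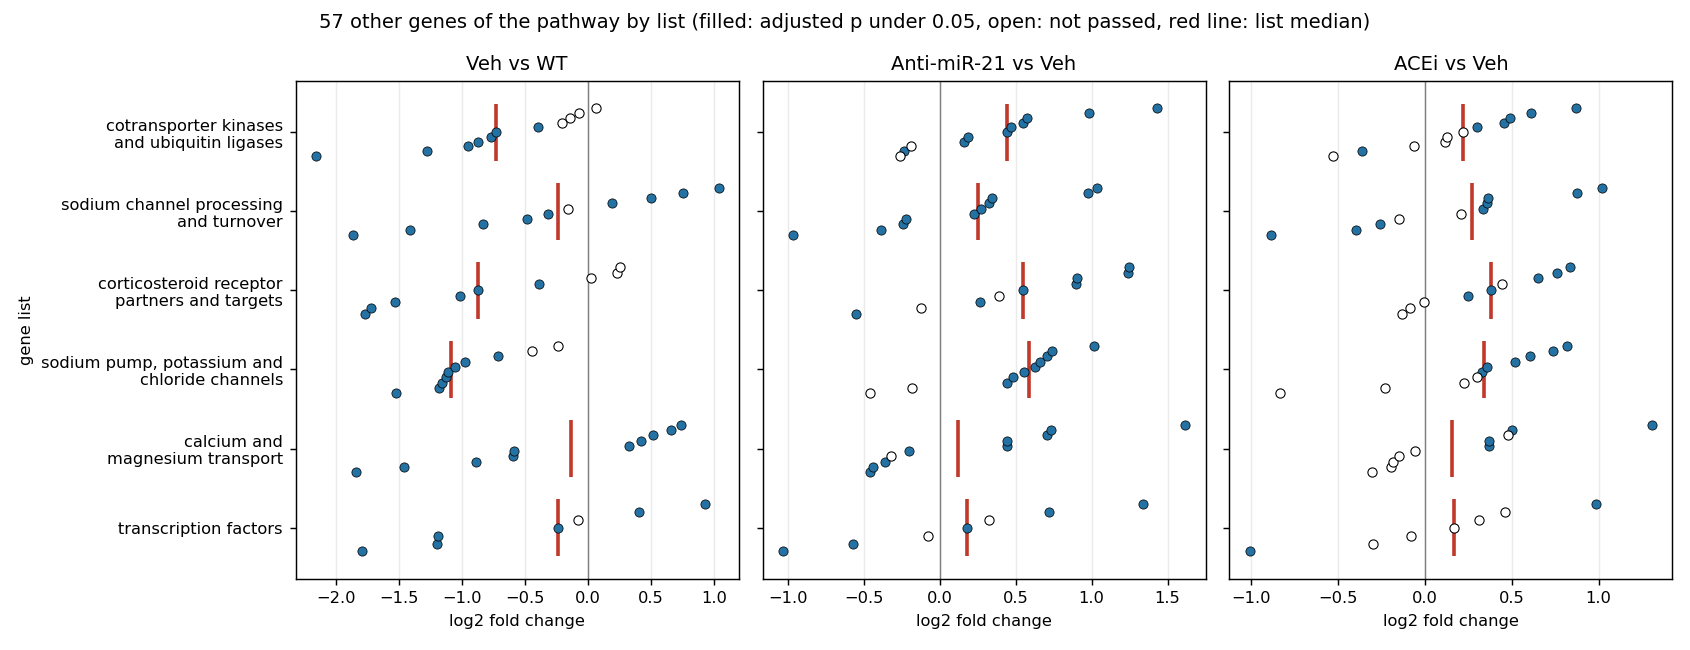
Log2 fold changes (x axis) of the 57 other pathway genes in their 6 lists (y axis), for Veh against WT, anti-miR-21 against Veh and ACEi against Veh, filled where the adjusted p is under 0.05, with the median of each list in red. List medians lie between -1.08 and -0.13 in Veh against WT, and between 0.12 and 0.59 with anti-miR-21 against Veh.

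Markers of other cell types moved with the groups, and their part in the results was not tested. Of 5 thick ascending limb markers 4 fell and 1 rose in Veh, with summed levels of 5645 to 6864 CPM in WT and 2117 to 4822 CPM in Veh. All 5 proximal tubule markers fell (11412 to 14710 against 1246 to 3537 CPM), as did all 5 of intercalated cells (199 to 257 against 70.4 to 120 CPM) and 3 of 5 of principal cells (384 to 778 against 201.7 to 537 CPM). All 5 markers each of injured tubules (561 to 647 against 10433 to 15711 CPM), fibroblasts (111 to 283 against 2488 to 3184 CPM), macrophages (125 to 138 against 575 to 695 CPM) and T cells (0.71 to 1.72 against 7.56 to 27.2 CPM) rose. Of 5 markers each, 4 rose for podocytes, 3 for B and plasma cells and 4 for urothelium, and for endothelium 2 rose and 2 fell. With library totals alone, 3 markers of the thick ascending limb, 3 of intercalated cells and 2 of principal cells were lower. Higher were 1 of the thick ascending limb, 5 of podocytes, 4 of B and plasma cells, 5 of urothelium and 3 of endothelium, where none was lower. Those of proximal tubule, injured tubules, fibroblasts, macrophages and T cells stayed at 5 of 5 in the same direction. With anti-miR-21 against Veh, thick ascending limb markers were at 4474 to 5982 CPM and proximal tubule markers at 6206 to 10377 CPM, and with ACEi at 3531 to 5172 CPM and 6524 to 8552 CPM. Of the thick ascending limb markers, 4 rose and 1 fell with anti-miR-21, and 1 rose with ACEi. With library totals alone 2 rose and 1 fell with anti-miR-21, and 1 rose and 1 fell with ACEi. Injured tubule markers summed to 3599 to 8826 CPM with anti-miR-21 (4 of 5 fell against Veh) and 6888 to 7369 CPM with ACEi (2 of 5 fell). Fibroblast markers were at 499 to 1118 CPM (4 of 5 fell) and 1230 to 1361 CPM (2 of 5 fell), and macrophage markers at 248 to 356 CPM and 319 to 380 CPM (5 of 5 fell in each). All 5 intercalated cell markers rose with anti-miR-21 (154 to 191 CPM) and 4 with ACEi (146 to 157 CPM). All 5 urothelium markers fell with each treatment, from 10.7 to 191 CPM in Veh to 1.69 to 8.41 CPM with anti-miR-21 and 1.70 to 6.72 CPM with ACEi. Principal cell markers were divided, with 1 higher and 1 lower with anti-miR-21 and 1 higher and 2 lower with ACEi. With library totals alone, 5 injured tubule markers were lower with anti-miR-21 and 3 with ACEi, and of fibroblast markers 4 and 5. Macrophage and urothelium markers stayed at 5 lower with each. Of intercalated cell markers 3 were higher with each treatment, and of principal cell markers 2 were lower with each and 1 was higher with ACEi. Of T cell markers 4 fell with anti-miR-21 and none was called with ACEi, where library totals alone gave 5 and 1 lower. Between the treatments no T cell marker was called. The only marker called there was 1 of macrophages, lower with anti-miR-21 than with ACEi, and it was not called with library totals alone. Kidney was the labelled tissue, and the tubule markers were present in all mice. The extraction text speaks of adipose tissue. Fat markers, of which 4 of 5 rose, summed to 0.66 to 6.91 CPM in WT, 0.68 to 120 CPM in Veh, 1.76 to 99.7 CPM with anti-miR-21 and 0.39 to 3.04 CPM with ACEi. Adrenal tissue, the source of aldosterone, was scarcely present: Cyp11b2, aldosterone synthase, had at most 3 counts in every mouse, and 2 of the 3 tested adrenal markers rose.

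Within groups, genes whose deviations from their group means ran most like those of each member were named from 13153 genes over the 20 mice, as a description in which the libraries share depth and composition. Those named for Slc12a3 were Tax1bp1 (Pearson r = 0.89, Spearman rho = 0.91) and Lrrc40 (r = 0.88, rho = 0.85). Pvalb was closest to Kap, the androgen-regulated protein of the proximal tubule (r = 0.97, rho = 0.88), C8a (r = 0.95, rho = 0.79) and Eci3 (r = 0.94, rho = 0.93). Its values spread 28.97-fold in Veh and at most 2.17-fold in any other group. The r of Pvalb with any gene, Hsd11b2 below included, thus rests mostly on the Veh mice. Those named for Wnk4 were Cab39, a partner of SPAK (r = 0.86, rho = 0.90), and Plekha7 (r = 0.85, rho = 0.84).

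Hsd11b2 was closest to Atp6v1c2, a subunit of the proton pump (r = 0.91, rho = 0.89), Nat8f1 (r = 0.87) and Gm15883 (r = 0.87). For Scnn1g these were Plekhd1 (r = 0.85) and D630039A03Rik (r = 0.82), for Scnn1b Grb14 (r = 0.82), Bcap29 (r = 0.75) and Ptbp2 (r = 0.71), and for Scnn1a Mphosph10 (r = 0.79), Tom1l1 (r = 0.76) and Ankra2 (r = 0.76). For Sgk1 they were Tcim (r = 0.81), Galnt15 (r = 0.80) and Mmp9 (r = 0.77), for Nr3c2 Golim4 (r = 0.78), Sfrp1 (r = 0.78) and Pibf1 (r = 0.73), and for Trpm6 Ddx27 (r = 0.72), Ankra2 (r = 0.72) and Enox2 (r = 0.69). Among the members, Pvalb and Hsd11b2 (r = 0.82), Slc12a3 and Scnn1g (r = 0.79) and Scnn1b and Scnn1g (r = 0.77) were the closest pairs.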

How the data were processed

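Total RNA was sequenced as paired-end reads. Reads were aligned by the authors with OSA4 in OmicSoft Studio against GRCm38, and the deposited tables hold an estimated count per Ensembl gene and, on another gene model, FPKM normalized for length and library total. Whether strand was used is not given in the sources used here. Table columns carry the library names given in the labels, the alignment count per library was deposited too, and 3 FPKM columns that match no sample in the labels were not used. Of the positive values 29.1% were not whole, so counts were rounded.

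Genes were kept with filterByExpr (minimum count 10, minimum total 15), scaled with TMM and fitted in R 4.3.3 by edgeR 4.0.16 (quasi-likelihood), with 1 coefficient per group over 20 mice, Benjamini-Hochberg adjustment and a threshold of 0.05. P-values weigh a difference between groups against the spread between mice. Depth was near equal between mice, so the lowest counts (10 for Pvalb) are the least precise values. DESeq2 1.42.0, limma 3.58.1 on log2(FPKM + 1), other scalings and filters, flow cell as a term, leaving out each mouse, fits of the 2 compared groups and flow cell A alone were alternatives. Ratios were log2 of counts with 0.5 added to each. The steps were tested on simulated data. For the gene tests, 200 genes were changed in simulated Veh mice, with rises and falls balanced. Far fewer genes changed there than were called in these data, so the simulation does not test the scaling.

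The members, gene lists and markers were chosen with earlier results of these data known. Named genes are the members, in each list the 2 called genes with the largest change in Veh against WT and the 1 with the largest p, and for each member the 3 genes of highest Pearson r of group-centred log2 CPM (prior count 2, mean of at least 1), except 4 genes that are not reported here. Replicate numbers pair no mice. The library table gives another ramipril dose than the labels. Sequences are from RefSeq and GENCODE.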

Additional observations from a re-analysis of the deposited data

Results flagged for a closer look

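The log2 ratio of Trpm6 to Slc12a3 in anti-miR-21 mouse A12 was -5.90, apart from the other 5 mice of the group, whose lowest value was -5.19. The gap was 0.73 of the group's range, above Dixon's 95% limit for 6 mice. It was the only such value in 54 groups of values examined, where chance gives about 1 in 20. A12 had the lowest Trpm6 of all anti-miR-21 mice, at 6.82 CPM, and its part in the results was not tested beyond leaving it out. Without A12, Trpm6 was called higher with anti-miR-21 than in WT (0.36, adjusted p = 0.039 in edgeR). With all mice that difference was 0.25 and not called (adjusted p = 0.20).

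The difference between the 2 treatments in the log2 ratio of Slc12a3 to Scnn1b, 0.45 higher with anti-miR-21 than with ACEi, passed the exact permutation test of that difference (adjusted p = 0.040). Both treated groups had been compared with the same Veh mice. Its value without single mice is given with the result.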

How the results depend on the processing

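The falls of Slc12a3, Pvalb and Wnk4 and the rises of Slc12a3 and Pvalb with anti-miR-21 kept their direction and their call under every alternative run. The scaling between libraries mattered most for the other genes. With library totals alone the share of called genes that were higher was 81.2% in Veh against WT instead of 53.4%, 20% in anti-miR-21 against Veh instead of 48.6%, 20.5% in ACEi against Veh instead of 52.4%, 88.6% in anti-miR-21 against WT instead of 54.6% and 85.6% in ACEi against WT instead of 52.7%. The cause of the changes below was not tested, except that library totals and unscaled FPKM shift all genes together. No paired analysis was possible because replicate numbers only name separate mice. ACEi could not be compared within flow cell A, where it had 1 mouse. The lowest counts limit Pvalb in Veh.

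With library totals alone, directions reversed in Veh against WT for Scnn1b (0.51), Scnn1g (0.16), Nr3c2 (0.20), Hsd11b2 (0.20) and Sgk1 (0.58), in anti-miR-21 against Veh for Scnn1a (-0.22), Hsd11b2 (-0.23) and Sgk1 (-0.099), and in ACEi against Veh for Scnn1b (-0.17), Nr3c2 (-0.18), Hsd11b2 (-0.053), Sgk1 (-0.087) and Wnk4 (-0.11). They also reversed for Sgk1 in anti-miR-21 against ACEi (-0.012), for Scnn1b (0.13) and Scnn1g (0.16) in anti-miR-21 against WT, and for Scnn1g (0.29), Nr3c2 (0.019) and Hsd11b2 (0.14) in ACEi against WT. Members called in anti-miR-21 against Veh were then 7, and pathway genes called in ACEi against Veh were 20.

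With log2(FPKM + 1), with or without a mean FPKM of at least 0.5, values reversed in Veh against WT for Scnn1b (0.50), Scnn1g (0.17), Hsd11b2 (0.19) and Sgk1 (0.61), in anti-miR-21 against Veh for Scnn1a (-0.21), Scnn1g (-0.0022), Hsd11b2 (-0.22) and Sgk1 (-0.12), in ACEi against Veh for Scnn1b (-0.16), Nr3c2 (-0.021), Hsd11b2 (-0.046), Sgk1 (-0.082) and Wnk4 (-0.11), in anti-miR-21 against ACEi for Sgk1 (-0.037), in anti-miR-21 against WT for Scnn1b (0.13) and Scnn1g (0.16), and in ACEi against WT for Scnn1g (0.28) and Hsd11b2 (0.15). With log2(FPKM + 0.1) these were 0.53, 0.18, 0.19 and 0.63, then -0.22, -0.0021, -0.22 and -0.12, then -0.17, -0.021, -0.046, -0.084 and -0.11, then -0.039, then 0.14 and 0.18, and then 0.30 and 0.15, in the same order. Members called in anti-miR-21 against WT were 3 with log2(FPKM + 0.1).

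Sgk1 in Veh against WT, near 0, was at 0.11 with upper-quartile scaling, 0.015 without a filter, 0.060 with at least 10 counts in every mouse, 0.065 within flow cell A, 0.018 with only the groups compared and 0.048 with FPKM divided by TMM factors. Scnn1g in ACEi against WT was at 0.0068 with upper-quartile scaling, 0.0076 without a filter and 0.027 with at least 10 counts. Scnn1b in Veh against WT was at 0.037 with upper-quartile scaling, Scnn1b and Nr3c2 in anti-miR-21 against Veh at 0.045 and 0.097 within flow cell A, and Nr3c2 there at 0.012 with FPKM divided by TMM factors. The ratio of Nr3c2 to Hsd11b2 from FPKM was -0.25 in Veh against WT and 0.031 in ACEi against Veh.

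Between anti-miR-21 and ACEi, 103 genes were called, 0.584% of those tested. The share was 2.48% in DESeq2, which called 1 member, 0.243% without a filter, 1.12% with at least 10 counts in every mouse and 0.28% with log2(FPKM + 0.1). With single mice left out it ranged from 0.117% without A23 to 1.22% without A8. Leaving out single mice gave 8 to 8 members called in Veh against WT, 4 to 4 in anti-miR-21 against Veh, 3 to 5 in ACEi against Veh, and 20 to 34 pathway genes called in ACEi against Veh, the lowest without A13. Passing ratios numbered 13 to 19. Values near 0 that changed sign ranged from -0.13 to 0.14 for Sgk1 in Veh against WT, -0.066 to 0.10 for Scnn1b and -0.11 to 0.047 for Scnn1g in ACEi against WT, -0.088 to 0.0072 for Scnn1b and -0.083 to 0.037 for Nr3c2 in anti-miR-21 against Veh, and -0.014 to 0.14 for Sgk1 in anti-miR-21 against ACEi. The ratio of Nr3c2 to Hsd11b2 ranged from -0.066 to 0.090 in Veh against WT and from -0.16 to 0.026 in anti-miR-21 against ACEi, and that of Wnk4 to Slc12a3 from -0.0079 to 0.098 in anti-miR-21 against ACEi.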
